A study of Mus musculus with 2 samples.

Results

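The genes described here encode the nuclear subunits of the 5 respiratory complexes of mitochondria, from NADH dehydrogenase (complex I) to ATP synthase (complex V). Members were all protein-coding genes whose symbol began with Nduf and a subunit letter with a number, was *Sdha*, *Sdhb*, *Sdhc* or *Sdhd*, began with Uqcr, began with Cox and a number from 4 to 8, or began with Atp5. This rule gave 84 of the 39695 gene entries, with 37 in complex I, 4 in complex II, 8 in complex III, 18 in complex IV and 17 in complex V. The rule used names only and no measured value. Subunits with other names were not members, among them *Ndufab1* of complex I, *Cyc1* of complex III and the ATP synthase genes annotated as *Usmg5* and *Atpif1*, and a further annotated *Atp5o* entry was not analysed here.

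RNA-seq of whole testes compared 1 control library with 1 library from *Bcas2F/-;Vasa-Cre* males, both from mice aged 9 days (P9). The gene *Bcas2* codes for a protein of the Prp19 splicing complex, and the question was which transcripts differ when it is deleted from male germ cells. Control males also carried 1 deleted *Bcas2* allele beside the floxed allele and lacked Cre, so that both genotypes shared the germline deletion of 1 copy. *Vasa-Cre* is active in germ cells, whereas whole testes also hold somatic cells, in which the deletion is not directed. The labels give the strain as C57BL/6, whereas the methods describe a mixed background. How many mice made up each library is not given in the sources used here. Values are RPKM, the reads counted on a gene per kilobase of its length and scaled to the number of reads counted in the library. The library sizes behind them were estimated from the RPKM, at 19918750 reads in the control and 19331687 reads in the *Bcas2F/-;Vasa-Cre* library. Both estimates are below the numbers of mapped reads that the paper reports, which are a different measure. The sequencing was paired-end, and the paper does not say whether a pair was counted as 1 read. With 1 library for each genotype the differences could not be checked against replicates, and p-values are left out. *Bcas2* itself had 39.5 RPKM in control and 25.7 RPKM in *Bcas2F/-;Vasa-Cre* testes (1410 and 888 reads), a log2 ratio of −0.60.

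The respiratory complexes sit in the inner mitochondrial membrane. Complexes I and II pass electrons from NADH and succinate to ubiquinone, complex III passes them to cytochrome c, and complex IV hands them to oxygen. Complexes I, III and IV pump protons, and complex V lets the protons flow back to make ATP. Except for complex II, each complex joins nuclear subunits to a few subunits encoded by mitochondrial DNA, so its assembly draws on transcripts of both genomes. In the testis, Sertoli cells feed lactate to the spermatocytes, which rely on oxidative metabolism, and several subunits have isoforms known from testis, heart or muscle.

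The transcription factor NRF1 is named for nuclear respiratory factor and binds a palindrome in the promoters of many respiratory genes. RefSeq promoter windows on GRCm38.p6, from 250 bases before to 50 bases after a gene's start, were matched to 68 of the 84 members. An NRF1-type palindrome was searched on both strands in a shorter and a longer spelling that overlap each other, and 12 of the 73 member windows (16.4%) held at least 1 of them. The shorter spelling is the run of capitals in the *Cox6a1* line below, and the longer is that in the *Ndufs5* line with any base at its seventh letter. The share was 3.81% of 21263 windows of protein-coding genes, and 6.75% of 8876 windows of protein-coding genes whose mean RPKM reached 10. The shorter motif CCGGAAG, bound by ETS factors such as GABPA, stood in 21.9% of member windows, 11.6% of protein-coding windows and 19.6% of those of the better expressed genes. NRF1-type motifs were found in 11 genes spread over all complexes, namely *Ndufa5*, *Ndufa6*, *Ndufa11*, *Ndufb4*, *Ndufs5*, *Sdha*, *Sdhd*, *Uqcrc1*, *Cox6a1*, *Atp5g2* and *Atp5k*. A stretch from each complex is given to show the motif, with both a lower and a higher member of complex I, on the strand of the gene and with the matched bases in capitals.
Ndufs5, complex I, chr4:123718266-123718294, minus strand: gctgcttgcTGCGCAGGCGCagacccgct
Ndufa11, complex I, chr17:56717693-56717720, plus strand: ctgcactgcGCGCATGCGCgcacgcctt
Sdha, complex II, chr13:74350277-74350305, minus strand: ggggcgtgtTGCGCAGGCGCagaatcttc
Uqcrc1, complex III, chr9:108936668-108936696, plus strand: actccgctcTGCGCATGCGCAgcgcggct
Cox6a1, complex IV, chr5:115349102-115349129, minus strand: aggaacgggGCGCATGCGCgctctcgct
Atp5k, complex V, chr5:108434431-108434458, minus strand: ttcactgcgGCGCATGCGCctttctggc
In *Uqcrc1* both motifs match the same bases. Such a match is a description of letters and not of a bound site.

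Most nuclear respiratory genes had slightly lower RPKM in *Bcas2F/-;Vasa-Cre* than in control testes, and none differed by more than 1.5-fold on the scale of RPKM + 1. Of the 84 members, 82 had a mean RPKM of at least 1 and were compared with the 14831 genes that passed the same filter. The log2 ratio of RPKM + 1 in *Bcas2F/-;Vasa-Cre* over control testes was below 0 in 65 of the 82 members and above 0 in 17. The share below 0 was 46.3% of all genes tested, and 47.7% of genes whose mean RPKM reached 10. These shares are the background for each count below 0 given here. The median log2 ratio was −0.092 over members, with the middle 50% of members from −0.191 to −0.019, and 0.015 over all genes tested. Set against other genes of like transcript length whose mean RPKM reached 10, the members' median was −0.045. Of the members, 69 lay below the median of all genes and 13 above it, against a background of 50% on each side by construction, and of 52% and 48% among genes whose mean RPKM reached 10. Past 1.5-fold, 1.69% of all genes tested were lower and 1.57% were higher. Among the 8670 genes whose mean RPKM reached 10, which include 77 of the members, the shares were 0.761% and 0.196%. A count of 0 members past 1.5-fold is therefore near the background.

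The reads behind each value could be recovered from the RPKM, and a 95% Clopper-Pearson interval of the log2 RPKM ratio, without pseudocount, was made for each gene. These intervals cover counting error only and leave out the spread between animals and libraries. Their width, and so the counts of intervals below or above 0, rests on the recovered reads, which are wrong where the gene length taken was not that of the authors. The interval lay wholly below 0 in 41 members, wholly above 0 in 5 and included 0 in 36. Over all genes with an interval, 17.9% lay below 0, 19.9% lay above 0 and 62.2% included 0. For genes whose mean RPKM reached 10, the shares were 22.9%, 24.9% and 52.2%. With intervals off 0 in so many genes, such an interval does not by itself mark a difference between genotypes. Members together took 199998 recovered reads in control and 182021 in *Bcas2F/-;Vasa-Cre* testes, or 1.004% and 0.9416% of the estimated library size.

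**Figure D1:**
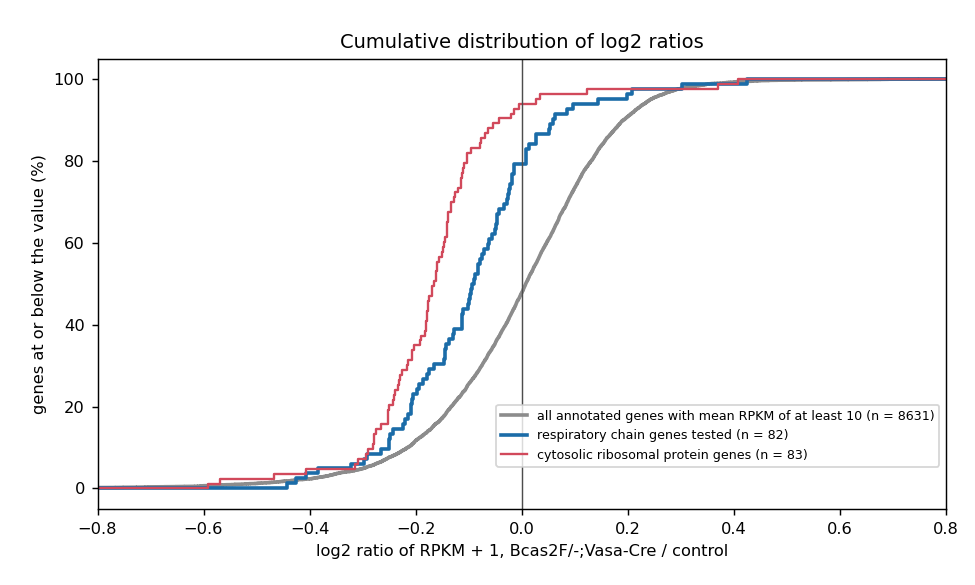
Cumulative share of genes (vertical axis, %) at or below a log2 ratio of RPKM + 1, *Bcas2F/-;Vasa-Cre* over control (horizontal axis), for the 82 respiratory chain genes tested, 83 cytosolic ribosomal protein genes and all annotated genes whose mean RPKM reached 10. At its median of −0.09 the respiratory chain curve lies between the curve of the ribosomal protein genes, with a median of −0.17, and that of all genes.

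Complex I takes electrons from NADH through a flavin and a chain of iron-sulphur clusters held by 7 nuclear core subunits. All 7 core genes had lower RPKM in *Bcas2F/-;Vasa-Cre* testes. *Ndufs7*, which holds the last cluster before ubiquinone, had 67.2 RPKM in control and 49.8 RPKM in *Bcas2F/-;Vasa-Cre* testes. Its log2 ratio was −0.43 and its interval ran from −0.58 to −0.29. *Ndufs8*, which holds a neighbouring pair of clusters, had 97.9 and 74.8 RPKM, a log2 ratio of −0.38. *Ndufv1*, the subunit that binds NADH, had 162 and 136 RPKM, a log2 ratio of −0.25. The intervals of these 3 genes lay below 0. Intervals that included 0 were found with log2 ratios of −0.10 for *Ndufs3*, −0.05 for *Ndufv2* and −0.03 for *Ndufs1*, the largest core subunit. *Ndufs1* had 45.3 and 44.4 RPKM, the lowest level among core genes in control testes.

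The 30 accessory genes of complex I, which stabilise the core and carry no cluster, lay on both sides of 0. Their median log2 ratio was −0.08, with 22 of the 30 below 0. Counting intervals lay below 0 in 12 accessory genes, above 0 in 2 and included 0 in 16. Among those lower, *Ndufa13*, also known as GRIM-19, had 86.2 and 68.8 RPKM, a log2 ratio of −0.32. *Ndufa11*, a membrane subunit, had 24.77 and 19.96 RPKM, a log2 ratio of −0.30. The most abundant complex I transcript in control testes, *Ndufb9*, had 229 and 203 RPKM, a log2 ratio of −0.17.

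The largest positive ratio of any member was that of *Ndufs5*, an accessory subunit on the intermembrane side. *Ndufs5* had 63.8 RPKM in control and 86.0 RPKM in *Bcas2F/-;Vasa-Cre* testes, from 685 and 896 reads. Its log2 ratio was 0.42 and its interval ran from 0.29 to 0.58. It stood apart from the other complex I genes whose mean RPKM reached 10, of which the next highest was *Ndufa4* at 0.14. *Ndufs5* lies on chromosome 4, had no close copy among the annotated transcripts of other genes, and its exons overlapped no other annotated gene.

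*Ndufa4*, named for complex I but now placed in complex IV, had 213 and 236 RPKM, and its interval from 0.06 to 0.23 lay above 0. Its paralogue *Ndufa4l2*, known for its induction by hypoxia, had 2.04 and 1.29 RPKM, the lowest deposited level in complex I, although *Ndufb2* was lower per longest coding transcript, at 1.07 against 1.40 in control testes. These values rest on 26 and 16 reads, and the interval from −1.65 to 0.30 included 0, so that no difference was detectable at this depth. *Ndufb2* had 3.74 and 4.84 RPKM (93 and 117 reads), and its interval also included 0.

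Complex II, or succinate dehydrogenase, is wholly nuclear and also works in the citric acid cycle. Its matrix subunits were lower in *Bcas2F/-;Vasa-Cre* testes, and its membrane anchors differed little. *Sdha*, the flavoprotein that oxidises succinate, had 406 RPKM in control and 379 RPKM in *Bcas2F/-;Vasa-Cre* testes, a log2 ratio of −0.10 with an interval from −0.16 to −0.05. *Sdhb*, the iron-sulphur subunit, had 97.1 and 89.9 RPKM, a log2 ratio of −0.11 with an interval from −0.20 to −0.02. The anchor *Sdhc* had 77.6 and 76.8 RPKM, and the anchor *Sdhd* had 78.0 and 78.4 RPKM. Both anchor intervals included 0 and reached no further than −0.10 and 0.10.

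Complex III carries its redox groups in the Rieske protein, cytochrome c1 and the mitochondrially encoded cytochrome b. The Rieske gene *Uqcrfs1* had 59.7 RPKM in control and 62.1 RPKM in *Bcas2F/-;Vasa-Cre* testes, with an interval from −0.05 to 0.16. Of the large core proteins that face the matrix, *Uqcrc1* had 94.2 and 86.1 RPKM, a log2 ratio of −0.13 with an interval below 0. *Uqcrc2*, its partner, had 208 and 201 RPKM, a log2 ratio of −0.05 with an interval that included 0. The lowest ratios were those of small accessory subunits. *Uqcr11* had 137 and 112 RPKM, a log2 ratio of −0.29 with an interval from −0.41 to −0.18. *Uqcrh*, the hinge protein that contacts cytochrome c1 and the most abundant transcript of the complex, had 273 and 236 RPKM, a log2 ratio of −0.21. *Uqcr10*, a further small subunit, had 121 and 126 RPKM with an interval that included 0. In all, 6 of the 8 genes were below 0, and 4 intervals lay below 0 and none above.

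In complex IV, cytochrome c oxidase, the catalytic subunits are encoded by mitochondrial DNA and the nuclear genes code for the surrounding subunits, many of them in tissue isoforms. Of the 16 genes tested, 14 had a log2 ratio below 0, and intervals lay below 0 in 7 and above 0 in 1. *Cox4i1*, the ubiquitous form of the first nuclear subunit to be added, had 374 RPKM in control and 322 RPKM in *Bcas2F/-;Vasa-Cre* testes, a log2 ratio of −0.22. Its isoform *Cox4i2*, known from lung and for its response to low oxygen, had 1.37 and 1.28 RPKM from 20 and 18 reads. *Cox7c*, the most abundant transcript of this complex by RPKM, had 379 and 332 RPKM, a log2 ratio of −0.19.

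Among the isoforms of subunit 6, the ubiquitous *Cox6a1* had 250 and 218 RPKM, a log2 ratio of −0.20 with an interval below 0. Its heart and muscle isoform *Cox6a2* had 0.534 and 0.629 RPKM, from 7 and 8 reads, and did not pass the filter. *Cox6b1*, the ubiquitous form, had 222 and 201 RPKM with an interval from −0.23 to −0.06. *Cox6b2*, known as the testis isoform, had 32.2 and 30.2 RPKM from 304 and 277 reads, with an interval from −0.33 to 0.15. *Cox6c* had 198 and 196 RPKM, with an interval no wider than −0.08 to 0.05.

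Among the isoforms of subunit 7, *Cox7a1*, known from heart and muscle, had the lowest log2 ratio of RPKM + 1 of all members, whereas without the pseudocount *Ndufa4l2* was lower, at −0.66 against −0.46. It had 26.6 RPKM in control and 19.3 RPKM in *Bcas2F/-;Vasa-Cre* testes, from 193 and 136 reads. Its log2 ratio was −0.44 and its interval ran from −0.79 to −0.14. The ubiquitous *Cox7a2* had 98.1 and 93.4 RPKM with an interval that included 0. *Cox7a2l*, which takes part in joining complexes III and IV into supercomplexes, had 164 and 159 RPKM with an interval that included 0. *Cox7b* was the only gene of the complex with an interval above 0, having 98.0 and 113 RPKM, a log2 ratio of 0.21 with an interval from 0.09 to 0.33. Its testis isoform *Cox7b2* lay on the other side of 0, with 26.1 and 22.2 RPKM, but its interval from −0.49 to 0.02 included 0.

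Among the isoforms of subunit 8, the ubiquitous *Cox8a* had 250 and 231 RPKM, a log2 ratio of −0.11 with an interval below 0. The testis isoform *Cox8c* had 4.75 and 4.78 RPKM from 45 and 44 reads. The heart and muscle isoform *Cox8b* was listed at 0 in control and at 0.143 RPKM in *Bcas2F/-;Vasa-Cre* testes, a single read, and did not pass the filter. The testis isoforms of subunits 6b, 7b and 8 therefore stood at lower RPKM than their ubiquitous forms in both libraries, and each had an interval that included 0.

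Complex V joins a catalytic F1 head in the matrix to a proton-driven ring in the membrane. The catalytic *Atp5b* had the highest RPKM of all members, 1101 in control and 1041 in *Bcas2F/-;Vasa-Cre* testes, a log2 ratio of −0.08 with an interval from −0.11 to −0.05. *Atp5a1*, its partner in the hexamer, had 462 and 437 RPKM, also a log2 ratio of −0.08. The central stalk subunit *Atp5c1* was the exception in the head, with 345 and 360 RPKM and an interval from 0.01 to 0.11. *Atp5d*, another subunit of the central stalk, had 112 and 93.9 RPKM, a log2 ratio of −0.25. Of the F1 head genes, 4 of 5 were below 0.

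The membrane ring is made of copies of a single protein that is encoded by 3 genes differing in their targeting sequences. *Atp5g1* had 35.5 and 31.3 RPKM, a log2 ratio of −0.18 with an interval below 0. *Atp5g2* had 100.4 and 97.1 RPKM with an interval that included 0. *Atp5g3*, the most abundant of them, had 265 and 277 RPKM, a log2 ratio of 0.06 with an interval whose lower bound was 0.001. Summed over the 3 genes, the ring had 401 RPKM in control and 405 RPKM in *Bcas2F/-;Vasa-Cre* testes.

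The 4 genes of the peripheral stalk, which holds the head still, had log2 ratios from −0.21 for *Atp5h* to 0.03 for *Atp5j*. All 4 small membrane subunits, *Atp5mpl*, *Atp5k*, *Atp5l* and *Atp5j2*, had intervals below 0, with *Atp5mpl* the lowest at 337 and 285 RPKM, a log2 ratio of −0.24. *Atp5s*, which codes for the coupling factor B, was the least abundant member of complex V with 8.25 and 9.61 RPKM, and its interval included 0. Over complex V, intervals lay below 0 in 12 genes, above 0 in 2 and included 0 in 3.

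**Figure D2:**
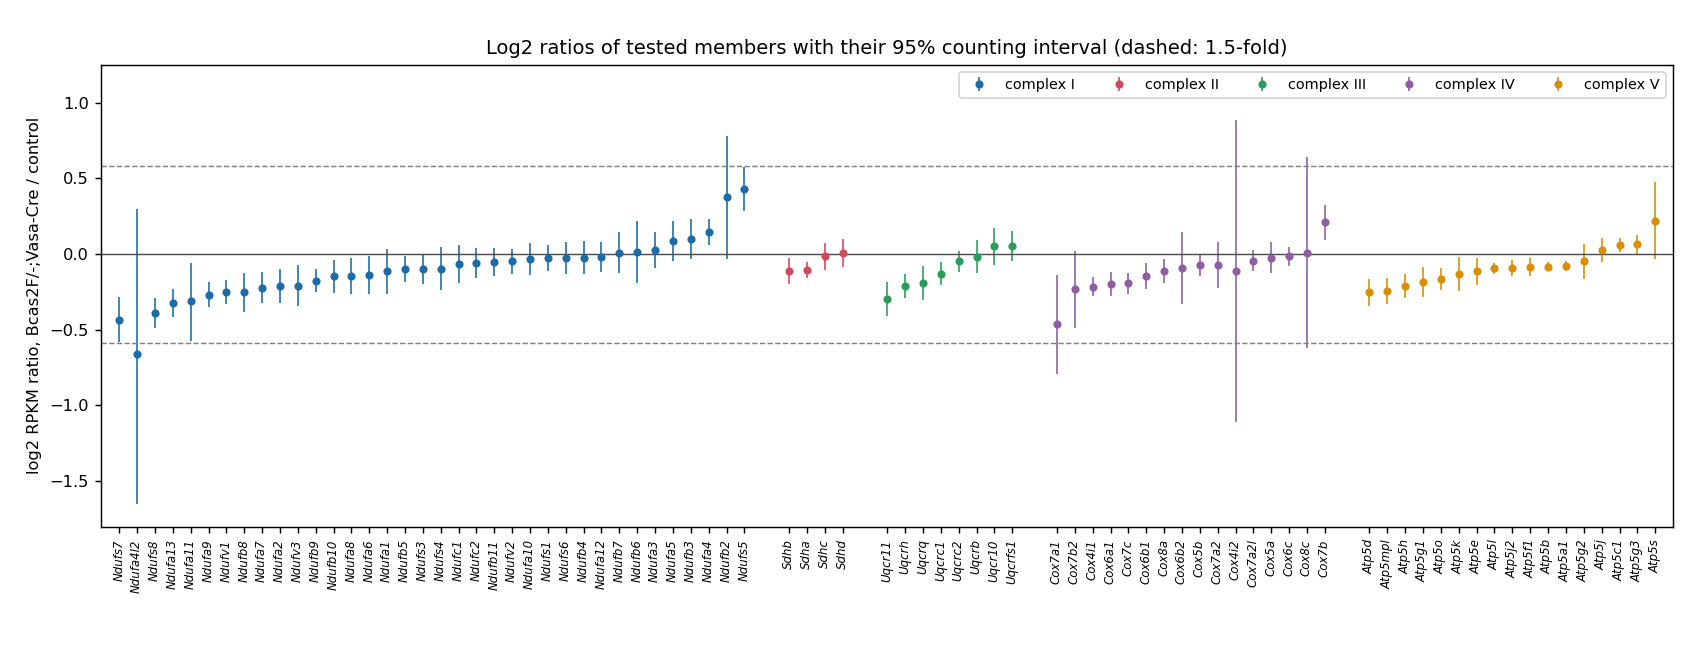
Log2 RPKM ratio without pseudocount, *Bcas2F/-;Vasa-Cre* over control (vertical axis), of 81 of the 82 members tested, in order within each complex; bars are 95% counting intervals and dashed lines mark 1.5-fold. Most points lie slightly below 0 in every complex, and *Ndufs5*, *Ndufa4*, *Cox7b*, *Atp5c1* and *Atp5g3* have intervals above 0. *Ndufa4l2* is the only point past a dashed line, because no pseudocount is added here.

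Set side by side, the complexes differed little. The median log2 ratio was −0.098 in complex I, −0.058 in complex II, −0.087 in complex III, −0.081 in complex IV and −0.090 in complex V. These medians lay closer together than the members within most complexes, whose SD of log2 ratios was 0.18, 0.06, 0.13, 0.14 and 0.12 in the same order. Summed RPKM gave a like range, with log2 ratios of −0.096, −0.080, −0.113, −0.119 and −0.085. No complex stood apart on either measure, and the differences between complexes were not tested, because members are not replicates.

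**Figure D3:**
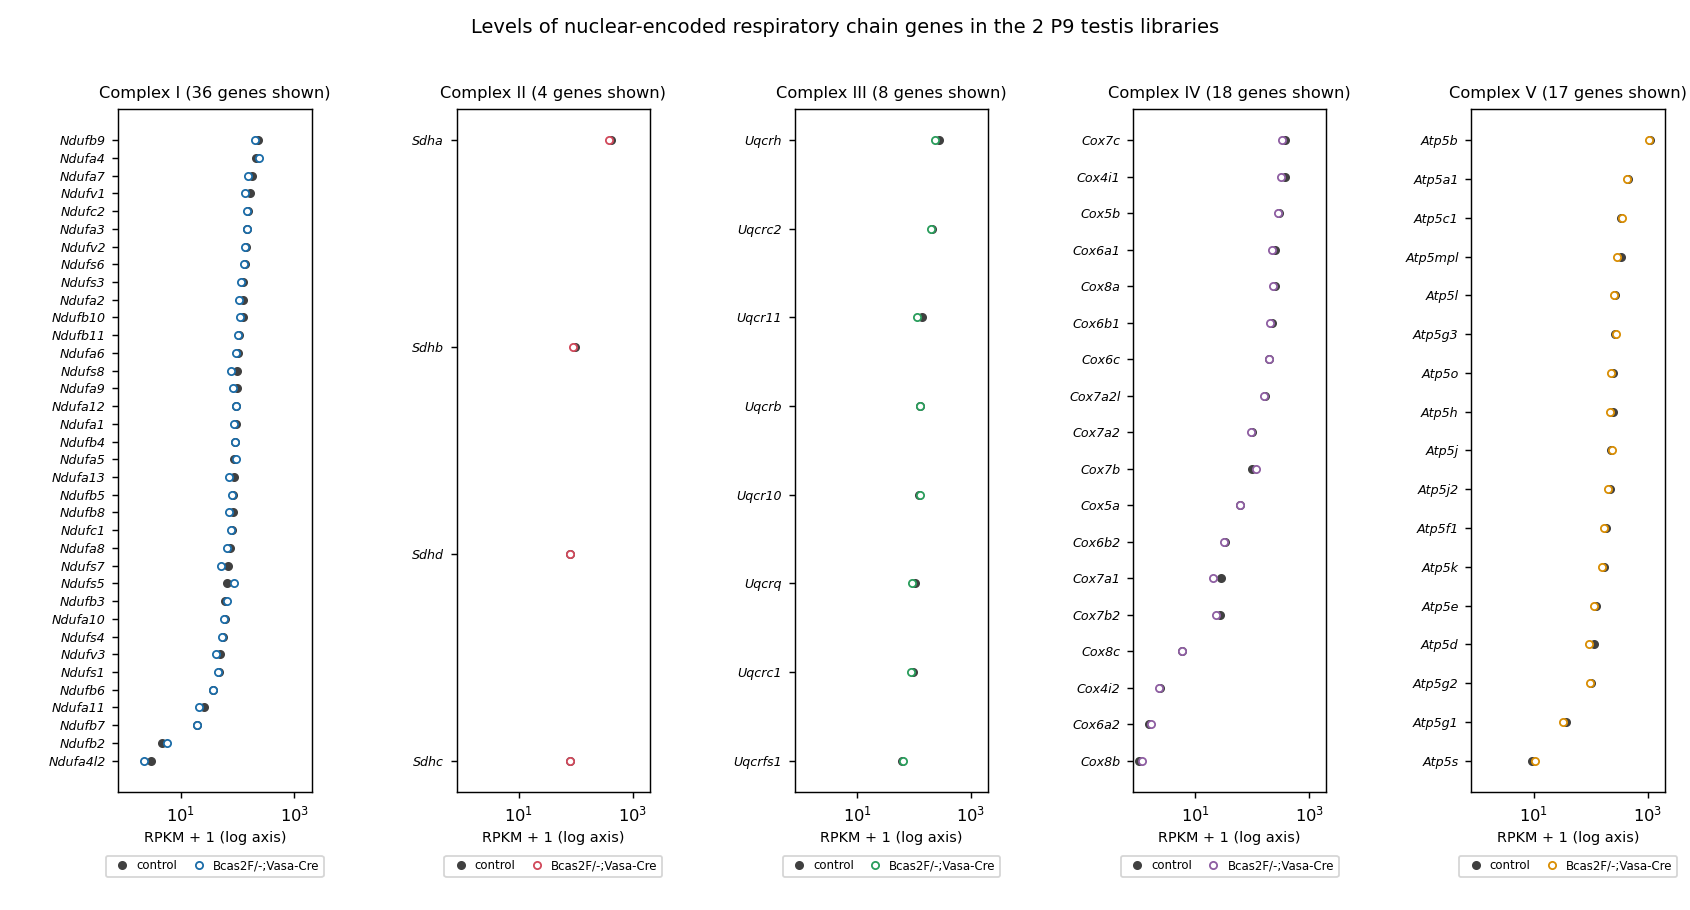
RPKM + 1 (horizontal log axis) of 83 of the 84 members in the control library (filled circles) and the *Bcas2F/-;Vasa-Cre* library (open circles), ordered within each complex by the control level. The pairs nearly coincide, and the levels span from 0 for *Cox8b* to 1101 RPKM for *Atp5b* in control testes.

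Levels of different genes depend on the length that each RPKM was divided by. The length behind a deposited value, as recovered from the reads, was within 2% of the mean length of the gene's annotated transcripts for 47 of the 84 members, and was far from it for some. For *Ndufs1*, the recovered length was 2465 bases and the mean 1290 bases. Where a gene has many short or long extra transcripts this moves its rank. *Atp5l*, with a mean transcript length of 1939 bases but 544 bases in its longest coding transcript, had 270 RPKM in control testes as deposited and 1013 when the same reads were set per longest coding transcript. *Atp5b* moved the other way, from 1101 to 503, and *Sdha* from 406 to 105. Of the 10 members with the highest levels in control testes, 6 were the same on both scales. The ratio of RPKM between the libraries is free of this choice, because the length cancels. In the ratio of RPKM + 1 it does not cancel fully, which matters at low levels. For *Ndufa4l2* the log2 ratio was −0.41 with the pseudocount and −0.66 without it.

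Members shared short, compact transcripts. Their longest coding transcripts had a median of 849.5 bases and 4 exons, against 3066 bases and 9 exons for the 8435 protein-coding genes whose mean RPKM reached 10. Close copies were searched among annotated transcripts of other genes in the same direction, at 90% identity or more over at least 50% of a transcript. They were found for 11 members, and 28 of the 30 copies were processed pseudogenes. Copies that are not annotated could not be found in this way. Reads of these members could be shared with a copy. *Atp5l* had 13 copies, *Atp5h* 5 and *Uqcrb* 4. Of the copies listed for *Atp5l*, the pseudogene *Gm10221* had 1.43 and 2.45 RPKM. Exons of 29 members overlapped another annotated gene, in no case over 50% or more of their bases, with *Atp5o* at 47.9%, *Ndufb6* at 39.0% and *Ndufa13* at 29.98%, and the sources used here do not say whether strand was used in counting.

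Across members the log2 ratio moved with base composition and hardly with length. Across the 82 members, Pearson's r between the log2 ratio and the GC content of a gene's transcripts was −0.43 and Spearman's rho −0.49. All points share the same 2 libraries, so this describes that pair only. With the log2 of mean transcript length, r was 0.09 over the members, many of which fall in the shortest class of genes. Over the 8628 genes whose mean RPKM reached 10 and that had an annotated transcript, r was −0.17 with GC content and 0.19 with length. Split by GC content, the median log2 ratio was −0.04 in the 28 members of lowest GC content, −0.08 in the middle 27 and −0.17 in the 27 of highest GC content. *Ndufs7*, *Ndufs8*, *Ndufa13*, *Ndufa11*, *Uqcr11* and *Atp5d*, all lower in *Bcas2F/-;Vasa-Cre* testes, had GC contents from 56.9% to 60.4%. *Cox7b* and *Ndufa4*, both higher, had 44.8% and 43.8%. *Ndufs5*, at 52.4%, had a middling GC content. These genes were picked as examples, and others went against the trend. *Cox7b2*, with the lowest GC content at 36.7%, had a log2 ratio of −0.22, and *Cox7c*, at 45.5%, had −0.19. *Ndufb7*, at 56.7%, had 0.009, and *Atp5g2*, at 56.8%, had −0.05.

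By length, 42 of the 82 members fell in the shortest 10% of genes tested, up to 730 bases. In that class the median log2 ratio was −0.12 over members and 0.002 over all 1444 genes tested. It was −0.067 over the 474 genes of the class that were no members and whose mean RPKM reached 10. With each ratio set against all genes tested of like length, in 10 classes, the median over members was −0.074. Set against genes of like length that were no members and whose mean RPKM reached 10, it was −0.045, with 27 intervals below 0 and 9 above. Set against genes of like GC content it was −0.103 with all genes tested, and −0.102 with the better expressed genes that were no members. These settings were chosen after seeing the data. The part of transcript length and base composition, or of RNA quality and library preparation, in the lower ratios was not tested further.

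**Figure D4:**
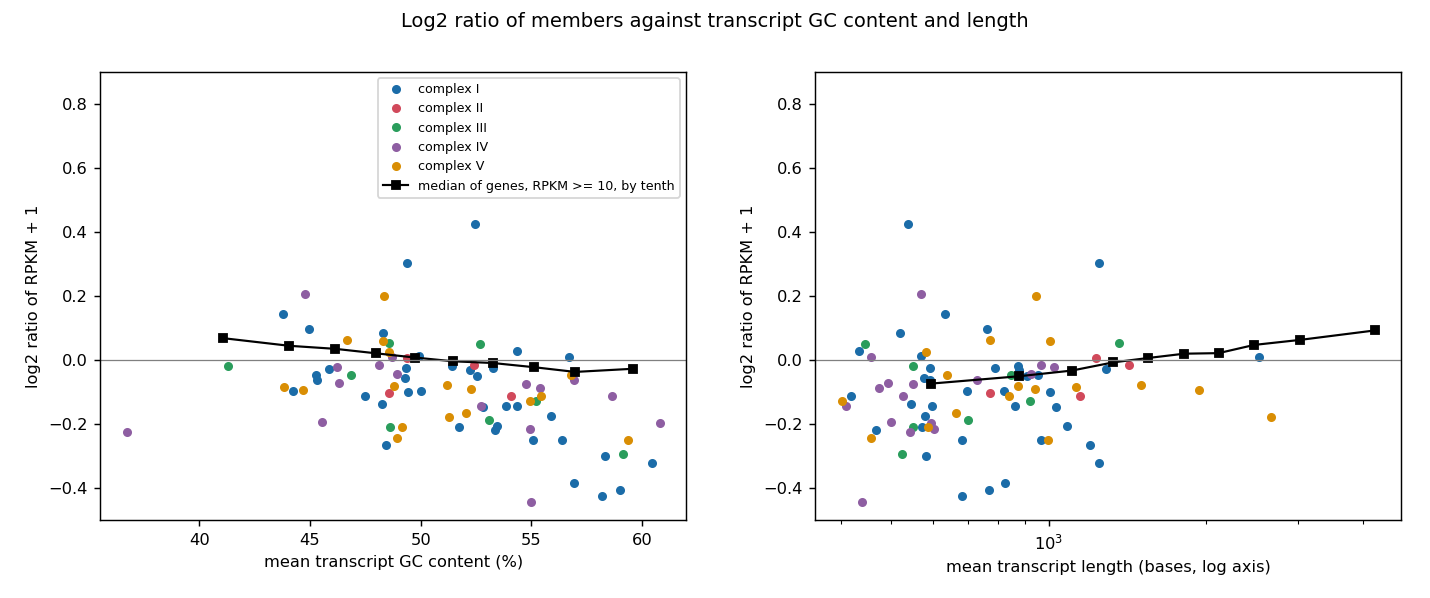
Log2 ratio of RPKM + 1 (vertical axis) of each member tested against the mean GC content of its transcripts in % (left) and their mean length in bases on a log axis (right), coloured by complex; black squares give the median of genes whose mean RPKM reached 10 in each of 10 classes. Members of high GC content have the lowest ratios, with a median of −0.17 in the 27 of highest GC content, and 42 of the 82 members lie in the shortest class.

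The NRF1-type motif did not set members apart by ratio. The median log2 ratio was −0.10 over the 11 genes with the motif, 8 of them below 0, and −0.09 over the 56 tested genes without it.

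Other genes of the pathway gave values on both sides of 0. Of the subunits and carriers that the rule left out, *Cyc1*, the cytochrome c1 of complex III, had 99.1 and 85.7 RPKM, a log2 ratio of −0.21. *Cycs*, the somatic cytochrome c, had 219 and 240 RPKM, a log2 ratio of 0.13, and *Cyct*, the testis form, had 23.1 and 34.0 RPKM, a log2 ratio of 0.53 from 302 and 430 reads. *Ndufab1*, the acyl carrier protein, had 83.1 and 86.2 RPKM with an interval that included 0. Both cytochrome c genes were higher in *Bcas2F/-;Vasa-Cre* testes, unlike most of the subunits they serve.

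The 44 assembly factors tested, which build the complexes but do not stay in them, had a median log2 ratio of −0.02 with 25 below 0. The 16 enzymes of the citric acid cycle and its entry had a median of 0.01 with 7 below 0. Of the 10 regulators of respiratory genes tested, 4 were below 0, with a median of 0.04. Of the 13 messenger RNAs of the mitochondrial genome, 12 were tested and *mt-Nd4l*, with 1 read and 0 reads, was not. Their median was −0.02, and they took 6.74% and 6.63% of the estimated library size. The lowest was *mt-Nd6*, a complex I subunit, with 2026 and 1750 RPKM, a log2 ratio of −0.21, followed by *mt-Cytb*, the cytochrome b of complex III, with 4327 and 3829 RPKM, a log2 ratio of −0.18. No gene of these lists was more than 1.5-fold higher or lower. The medians of complexes I to V thus lay below those of the citric acid cycle and mitochondrial genome lists, a difference given by its values only.

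Most ribosomal protein genes also had ratios below 0. All 83 cytosolic ribosomal protein genes were tested, and 78 were below 0, with a median log2 ratio of −0.17 and intervals below 0 in 74. Of the 76 mitochondrial ribosomal protein genes tested, 54 were below 0 and 22 above, with a median of −0.07, and intervals lay below 0 in 28, above 0 in 4 and included 0 in 44. Ribosomal protein genes of the cytosol have short transcripts as well, with a median length of 712 bases, close to the 716 bases of the respiratory genes and below the 1682 bases of all genes tested.

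**Figure D5:**
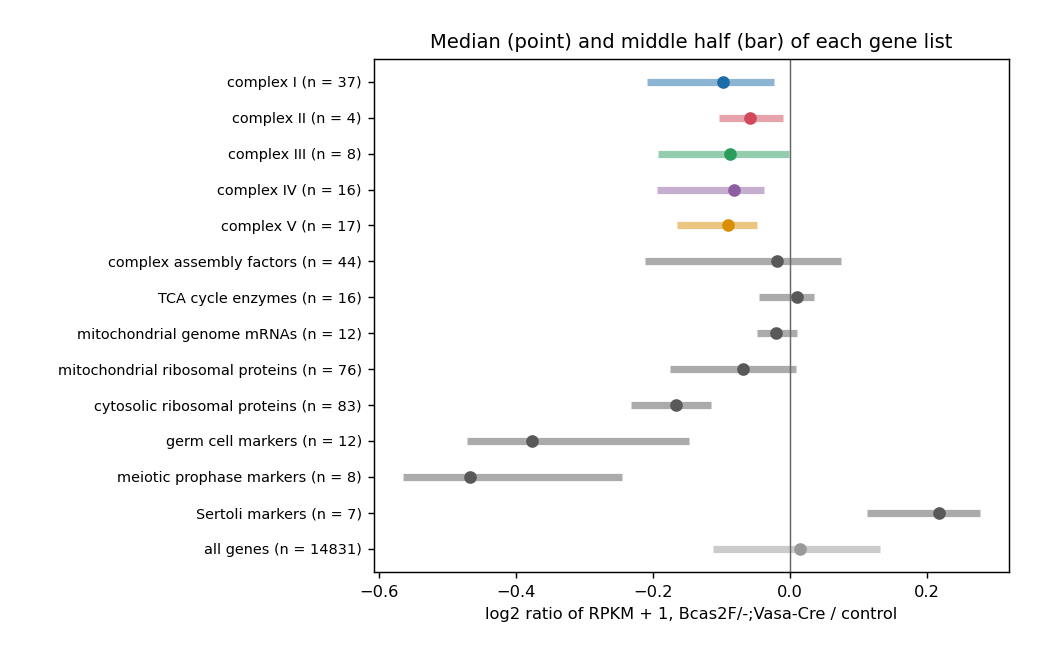
Median log2 ratio of RPKM + 1, *Bcas2F/-;Vasa-Cre* over control (points), and its middle 50% over genes (bars), for complexes I to V, other gene lists, cell type markers and all genes tested. The medians of the 5 complexes lie between −0.10 and −0.06, below those of the citric acid (TCA) cycle and mitochondrial genome lists and above those of the germ cell markers.

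Markers of some cell types also differed between the libraries, and in whole testes fewer cells of a type and less RNA per cell cannot be told apart. Of the 12 germ cell markers, 10 were below 0 with a median log2 ratio of −0.38, and their summed level was 667 RPKM in control and 499 RPKM in *Bcas2F/-;Vasa-Cre* testes. All 8 markers of meiotic prophase were below 0 with a median of −0.47, and their summed level was 168 and 117 RPKM. All 7 Sertoli markers tested were above 0 with a median of 0.22 and a summed level of 3402 and 3742 RPKM, while *Rhox5* was listed at 0 in both libraries. Leydig markers had a median of 0.20 over 6 genes, 4 above 0 and 2 below. Peritubular myoid markers had −0.01 over 4 genes, 2 above 0 and 2 below. Macrophage markers had −0.19 over 3 genes tested, all below 0. Erythroid markers had −0.26 with 4 of 5 below 0, but their summed level was similar, at 964 RPKM in control and 943 RPKM in *Bcas2F/-;Vasa-Cre* testes. Muscle markers had 0.17 over only 2 genes tested, with 24 to 43 reads in a library. The 4 neutrophil markers were all more than 1.5-fold lower, with a summed level of 25.8 and 3.12 RPKM. Defining markers of germ, Sertoli and Leydig cells were thus present in both libraries. The part of cell composition in the values of the respiratory genes was not tested.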

How the data were processed

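Whole testes of control and *Bcas2F/-;Vasa-Cre* males at P9 gave 1 library each. The authors aligned paired-end reads to mm10 with TopHat2 2.0.9, counted them with HTSeq and deposited RPKM. Of 39695 entries, 37692 (95.0%) matched GENCODE M21 on GRCm38 by identifier.

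Log2 ratios of RPKM + 1 were computed from the deposited RPKM at a mean RPKM of at least 1, with a threshold of 1.5-fold. Reads were recovered because the RPKM ratio of a gene is a ratio of whole reads times the ratio of library sizes, with lengths taken from GENCODE M21. They summed to 103.8% and 103.5% of the estimated library sizes, so the reads of some genes are wrong by a factor where the authors used other lengths. The procedure was also run on simulated libraries. These were built with the recovered lengths, so the run could not reveal wrong lengths. Python 3.11.15, numpy 2.4.6, scipy 1.17.1, pandas 2.3.3, matplotlib 3.10.9 and BLAST+ 2.17.0 were used.

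Members and lists were chosen with earlier results of these data known. Named genes were those under the filter, the extremes of level and ratio in each complex, the catalytic core and the paralogous isoforms, and other members were added after their values were seen. Alternatives covered pseudocounts, filters, scaling, the complex of *Ndufa4*, gene copies, GC content and length. No protein sequence was used here. Values of 1 member are not reported here.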

Additional observations from a re-analysis of the deposited data

How the results depend on the processing

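No paired analysis was possible because each genotype had 1 library. Of the recomputed medians, summed ratios and counts, 167 were labelled close to the values reported and 21 moved, and no median or summed ratio changed sign. A median of members was called close within 0.08 to 0.11 log2 units, about as large as the medians themselves. The label therefore says little about how stable the medians are. The median of complex IV, −0.081 in the main setting, was −0.014 when centred on better expressed other genes of like length, and was still labelled close. The median over members ranged from −0.108, with the all-gene median set to 0, to −0.045, centred on other genes of like length whose mean RPKM reached 10. With a pseudocount of 0.1 or 0.01, 1 member was more than 1.5-fold lower in place of 0, *Ndufa4l2*. With the all-gene median set to 0, the summed RPKM of complex V had a log2 ratio of −0.101, and 3 members in place of 5 had an interval above 0. With both libraries brought to an RPKM sum of 1000000, the summed ratios were −0.067 in complex I, −0.091 in complex IV and −0.057 in complex V. Without members that have close copies, the ratio of complex V was −0.069. Centred on genes of like GC content, it was −0.103 and 3 members had an interval above 0. Centred on genes of like length, it was −0.068 and 21 members in place of 13 lay above the median. Centred on genes that were no members and whose mean RPKM reached 10, 3 intervals lay above 0 for like GC content. For like length, the summed ratios were −0.039, −0.042, −0.054, −0.055 and −0.043 in complexes I to V, 30 members lay above the median, and intervals lay above 0 in 9 members and below 0 in 27 in place of 41. All settings with GC content or length were chosen after seeing the data. For each, the cause was not tested. The depth left differences undetectable for members with few reads, and a spread between animals could not be estimated.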
